A study of Mus musculus with 4 samples.

Results

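Macrophages of the thymus were examined as the droplets that carried transcripts of complement C1q in single-cell RNA sequencing of mouse thymocytes. Droplets were selected on measured values: at least 200 genes, at least 500 unique molecular identifiers (UMIs, 1 per captured transcript) and at most 10% mitochondrial UMIs, with C1qa, C1qb and C1qc together at 3 UMIs or more and the B cell gene Cd79a at 0. Of 57354 deposited droplets, 37600 passed the filters and 1161 met the whole rule. They are called C1q droplets here, because a droplet can hold more than the RNA of a single cell. The samples were 2 libraries of control mice (genotype Tox4;F/F, titled WT) and 2 of cKO mice (genotype Tox4;F/F;Lck+), which carried the same floxed Tox4 alleles and the Lck-Cre transgene. All mice were 6 to 8 weeks old, on a C57BL/6 background, and both groups carried the floxed exons 4 to 6. The controls had no Cre. In the cKO mice Cre was driven by the proximal Lck promoter, which is active in developing T cells. The 4 libraries are control 1 and 2 and cKO 1 and 2, numbered as in their titles.

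C1q is the recognition part of the classical complement pathway, and its 3 chains are made by many tissue macrophages. In the thymus most developing T cells die during selection, and macrophages take up the dead cells through receptors such as Mertk, Axl and Timd4 (Tim-4) and degrade them in lysosomes. Iron, haem and cholesterol from the engulfed cells are then stored or exported. A droplet in which a macrophage has engulfed or bound a thymocyte, a droplet that caught both cells, and a droplet with free thymocyte RNA look alike in this assay.

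The libraries differed in quality along their replicate numbers: 48.3% and 46.1% of the droplets of control 1 and cKO 1 lay over the mitochondrial limit, against 20.6% and 23.1% in control 2 and cKO 2. The limit also took 104, 74, 151 and 186 droplets of control 1, control 2, cKO 1 and cKO 2 that met the C1q and Cd79a rule, which was 25.9% to 37.2% of all such droplets. Total depth ran from 42716798 to 62007453 UMIs per library. Any 2 libraries shared between 36 and 70 barcodes, and no barcode of a C1q droplet was shared.

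The C1q droplets numbered 218 in control 1, 197 in control 2, 432 in cKO 1 and 314 in cKO 2. Their share of the filtered droplets was 3.35% in control 1 (exact 95% binomial interval 2.92 to 3.81), 2.11% in control 2 (1.83 to 2.42), 5.14% in cKO 1 (4.67 to 5.63) and 2.35% in cKO 2 (2.1 to 2.63). These intervals cover counting error only.In both genotypes the library of replicate 1 had the larger share.

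C1q droplets were small. Their median UMI count was 1060, 1407, 1019 and 1446 in control 1, control 2, cKO 1 and cKO 2, which was 0.301, 0.474, 0.307 and 0.572 of the median of droplets without a C1q UMI. Between 36% and 48.6% of them held fewer than 1000 UMIs. They made up 9.72% to 14.8% of all filtered droplets with 500 or more but fewer than 1000 UMIs, but 0.96% to 1.58% of those with 2000 UMIs or more. Small droplets were also more frequent among the members than among the droplets without C1q, of which 5.29% to 15.2% held fewer than 1000 UMIs.

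**Figure D1:**
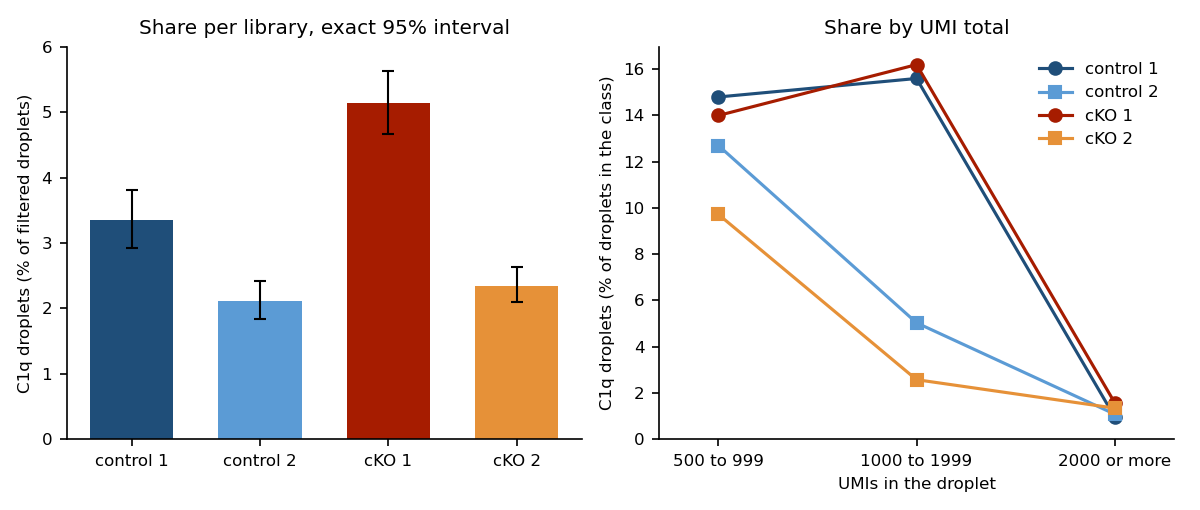
The left panel shows C1q droplets as a percent of the filtered droplets of each library (bars, with exact 95% binomial intervals), and the right panel shows the percent of C1q droplets among droplets of 3 classes of UMI total (1 line per library). The share was higher in replicate 1 of each genotype, and in every library it was lowest, at 0.96% to 1.58%, among droplets with 2000 UMIs or more.

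The depth of the C1q signal itself was low in most members. The median C1q droplet held 8, 8, 8 and 6.5 C1q UMIs in control 1, control 2, cKO 1 and cKO 2, and the highest droplet held 66, 259, 660 and 344. Between 31.8% and 45.9% of the members had 10 C1q UMIs or more. At the edge of the rule, 33, 33, 56 and 64 members had exactly 3 C1q UMIs, and 74, 96, 155 and 159 filtered droplets just outside had 2. C1q transcripts were also spread thinly over other cells: 6.81% to 11.3% of filtered droplets had 1 or 2 C1q UMIs. The chains kept nearly the same proportions in both kinds of droplet. C1qa made up 36.9% to 37.6% of the C1q UMIs of members and 35.7% to 37.6% of those in droplets with 1 or 2, and C1qc made up 27% to 29.2% and 27.1% to 29.6%. All 3 genes lie within a short stretch of chromosome 4 on the minus strand of GRCm38, with C1qb at chr4:136880129-136886187, C1qc at chr4:136889804-136893065 and C1qa at chr4:136895917-136898803.

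Thymocyte RNA was measured in these droplets before any genotype difference. Cd8b1, a chain of the CD8 coreceptor, reached 933, 1080, 663 and 869 UMIs per 1000000 (CPM) in the C1q droplets of control 1, control 2, cKO 1 and cKO 2. In droplets without a C1q UMI it reached 1483, 1453, 1126 and 1130 CPM. Trbc1, a constant region of the T cell receptor beta chain, stood at 1915, 1591, 1471 and 1305 CPM against 2923, 2928, 2372 and 2282 CPM. Both genes were therefore lower in C1q droplets than in the other droplets of every library, but far from absent. The same held for the recombinase gene Rag1, at 643, 632, 467 and 659 CPM against 973, 887, 683 and 837 CPM. Summed over 20 thymocyte genes, C1q droplets held 0.678, 0.709, 0.633 and 0.771 of the level in droplets without a C1q UMI. The mean of this ratio differed by 0.00847 between cKO and control (two-sided exact permutation p = 1, n = 2 per group). It turned to -0.0374 at a minimum of 10 C1q UMIs and was 0.102 at a mitochondrial limit of 5%. The genotypes did not overlap in either of these settings, in opposite directions. Without cKO 2 it was -0.0604. Of the 20 genes, 18 were lower than in the other droplets in all 4 libraries and 0 were higher in all 4.

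Among the members, thymocyte RNA was lower in the classes with more C1q. Members with 3 to 9 C1q UMIs held 0.781 to 0.909 of the thymocyte level of droplets without C1q, those with 10 to 29 held 0.522 to 0.659, and those with 30 or more held 0.141 to 0.277. In the last class, of 19, 16, 28 and 21 droplets, Cd8b1 stood at 508, 548, 243 and 115 CPM. Over the same classes Apoe, the carrier of lipid in macrophage secretions, climbed from 2138 to 3057 CPM to between 16673 and 40822 CPM. Lyz2, the lysozyme of myeloid cells, climbed from 696 to 1381 CPM to between 7204 and 15205 CPM. Only 13, 52, 47 and 67 members had no UMI of Cd8a, Cd8b1, Trbc1 and Rag1, which was 5.96%, 26.4%, 10.9% and 21.3% of the members of control 1, control 2, cKO 1 and cKO 2. Thymocyte RNA also differed with droplet size, though in no steady order. Members with 2000 UMIs or more held 0.715 to 0.887 of the thymocyte level of other droplets in the same size class, those from 1000 UMIs up to that size held 0.178 to 0.402, and those with fewer than 1000 UMIs held 0.228 to 0.594.

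**Figure D2:**
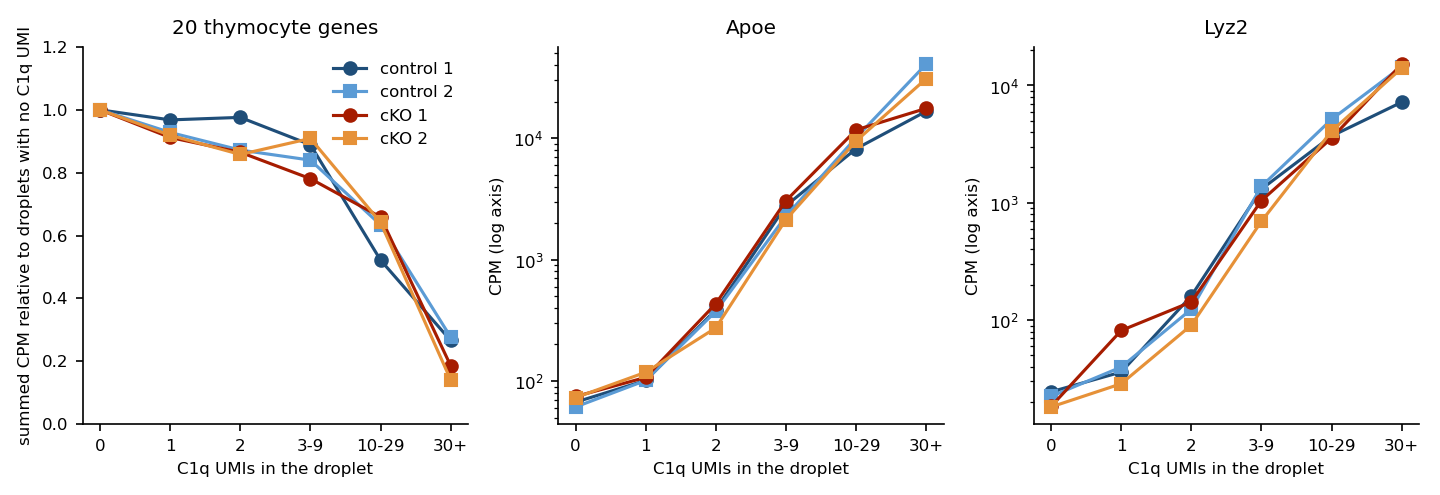
Filtered droplets were grouped by their number of C1q UMIs (x axis), and 1 line per library gives the summed CPM of 20 thymocyte genes relative to droplets with 0 C1q UMIs, and the Apoe and Lyz2 levels in CPM (these on log axes). In each library the thymocyte level was lowest in the class of 30 C1q UMIs or more, at 0.141 to 0.277, where Apoe and Lyz2 were highest.

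The label was then checked against genes that the rule had not used. All of these values come from droplets picked on C1q and are descriptions without a test. Of 20 macrophage genes, 19 were higher in C1q droplets than in droplets without C1q in all 4 libraries, and the list summed to 12916, 18449, 17491 and 13895 CPM against 184 to 197 CPM. Lyz2 stood at 2883, 4146, 4466 and 2871 CPM against 18.2 to 24.5 CPM. Apoe stood at 6398, 9540, 8205 and 6837 CPM against 61.1 to 74.5 CPM. Vcam1, an adhesion molecule of tissue macrophages that hold on to passing cells, stood at 366, 735, 464 and 601 CPM against 3.28 to 4.85 CPM. Control 1 was thus the lowest library for Apoe and Vcam1. Tyrobp and Fcer1g, signalling adaptors of myeloid receptors, were at 887 to 1105 CPM and 734 to 968 CPM. Tyrobp was higher in the dendritic droplets described below, at 1363 to 1697 CPM. Against those droplets 15 of the 20 macrophage genes were higher and 2 lower in all 4 libraries. Csf1r, the receptor for the growth factor of macrophages, was at 94.4 to 159 CPM and had a UMI in 13.7% to 19.3% of C1q droplets, against 0.2% to 0.441% of droplets without C1q. The transcription factors Maf and Spi1 and the surface proteins Adgre1 (F4/80) and Fcgr1 (CD64) were also higher in all 4 libraries. Itgam was the exception, at 0, 1.87, 36.7 and 4.84 CPM against 1.72 to 2.37 CPM, and Cd14 stayed between 4.84 and 29.4 CPM. Ranked by the lowest fold over the other droplets in any library, after 1 CPM was added to both levels and with at least 50 CPM in each library, the first 5 genes other than C1q were Ms4a7, Lyz2, Apoc1, Apoe and Vcam1, at 83.8-fold or more. The added 1 CPM lowers the fold of genes that are near 0 in the other droplets, and without it genes such as Ccl12 and Itgb5 (lowest ratios 165 and 132) stand above Lyz2 (117).

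Markers of other thymic cells were then listed. The 12 dendritic genes summed to 207, 362, 241 and 281 CPM, which was 1.76, 3.36, 2.63 and 3.23 times their level in droplets without C1q, and 4 of the 12 were higher in all 4 libraries. Dendritic droplets numbered 54, 74, 61 and 72. They were chosen for at least 10 UMIs of class II genes and at least 2 of dendritic genes without any C1q, so that higher levels of those genes there follow from the choice and are given for scale only. The dendritic list reached 2640 to 3211 CPM in them. Flt3, the growth factor receptor of dendritic cells, was 0 in 3 libraries and 2.42 CPM in cKO 2, against 73.2 to 113 CPM in dendritic droplets, and Cd209a was 0 in all 4. Irf8, a transcription factor of dendritic cells and macrophages alike, was intermediate at 91 to 165 CPM against 817 to 1050 CPM. The fibroblast gene Pdgfra was also at 0 in all 4 libraries, and a count of 0 over the 2796667 UMIs of the members allows up to 1.07 CPM. The B cell list stood at 234 to 373 CPM against 406 to 632 CPM, and the rule itself had removed droplets with Cd79a. The 7 monocyte and neutrophil genes stood at 0.272, 0.244, 0.524 and 2.71 of their level in droplets without C1q, and the 5 erythroid genes at 0.0101, 0.0096, 0.127 and 1.15. The monocyte and neutrophil list summed to 62.1, 33.7, 111 and 41.1 CPM in C1q droplets, against 228, 138, 212 and 15.2 CPM in the others. The ratio of 2.71 thus comes with a low level in the other droplets of cKO 2. Epithelial and stromal genes, at 109 to 132 CPM, stood at 0.917 to 1.04 of their level in other droplets. Cell cycle genes were at 0.62 to 0.93 of that level, a range that overlaps the 0.633 to 0.771 of the thymocyte genes.

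**Figure D3:**
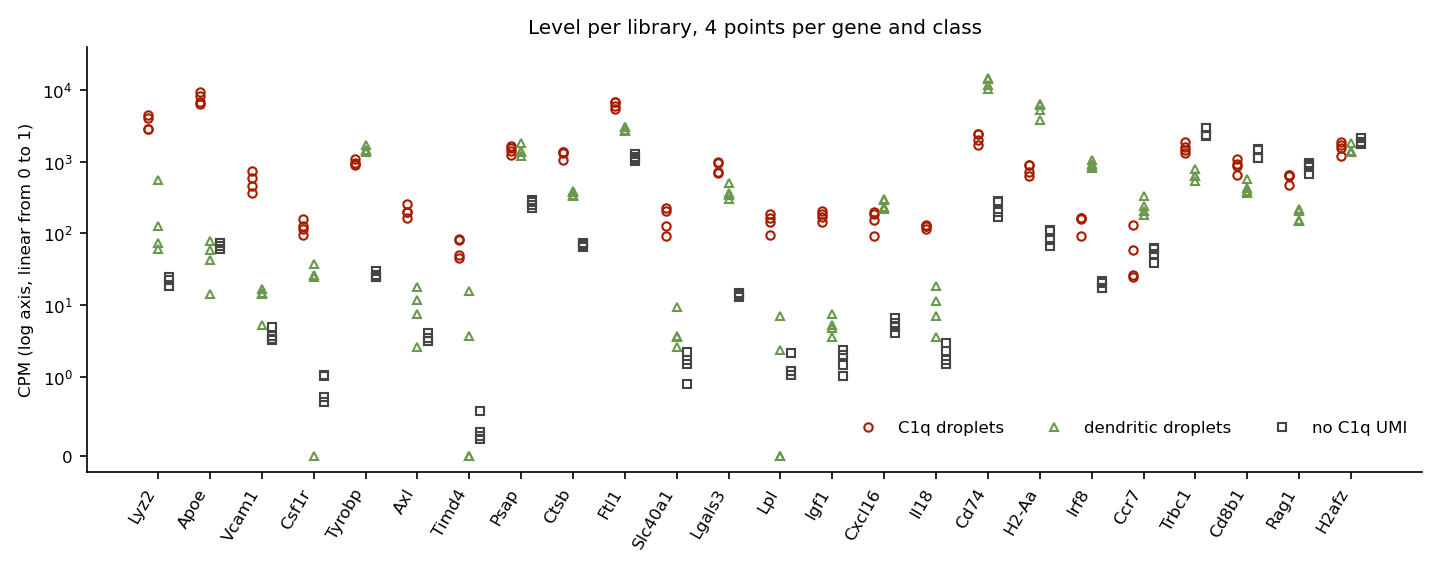
Each gene has 4 points per class (1 per library) for C1q droplets, dendritic droplets and droplets without a C1q UMI, in CPM on an axis that is logarithmic above 1 and linear below. The macrophage genes Lyz2, at 2871 to 4466 CPM, Apoe and Vcam1 stand highest in C1q droplets, but Tyrobp stands highest in dendritic droplets. Class II genes such as Cd74 stand highest in dendritic droplets, which were chosen on them, and thymocyte genes such as Trbc1 stand highest in droplets without C1q.

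Genes that macrophages use to take up dead cells were uneven. Axl, a receptor that binds dying cells through the bridging protein Gas6, was at 165, 201, 200 and 253 CPM in C1q droplets of control 1, control 2, cKO 1 and cKO 2, against 3.12 to 4 CPM in droplets without C1q. It had a UMI in 23.1% to 26.8% of C1q droplets. Mertk, the related receptor, was at 4.14, 41.2, 13.6 and 43.6 CPM and had a UMI in 0.917% to 5.08% of them. Its 4 values followed the replicate number, with both libraries of replicate 2 above both of replicate 1. Itgb5, an integrin subunit for Mfge8-coated cells, was at 60.5 to 101 CPM, and Lrp1, a scavenger receptor, at 41.4 to 81.1 CPM. Of 13 uptake genes, 9 were above the other droplets in all 4 libraries. Mfge8, Itgav, Cd36 and Pros1 were not, and Cd36 was found in 0% to 0.508% of C1q droplets.

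Lysosomal genes were higher almost throughout, in 22 of 23 cases in all 4 libraries. The proteases Ctsb and Ctsd reached 1049 to 1381 CPM and 896 to 1327 CPM, against 63.7 to 74.5 CPM and 164 to 184 CPM in droplets without C1q. Psap, the precursor of lipid-degrading cofactors, reached 1231 to 1633 CPM against 225 to 294 CPM. Ctss, a protease that trims the class II invariant chain, reached 700 to 1077 CPM. Dnase2a, which degrades the DNA of engulfed cells, was at 38.7 to 71.2 CPM against 5.43 to 8.26 CPM. Lipa, the lysosomal lipase, was the gene that did not differ in a fixed direction, at 137 to 197 CPM against 106 to 161 CPM. Dendritic droplets had overlapping levels of Psap (1210 to 1838 CPM) but lower Ctsd (56.3 to 84 CPM) and lower Ctsb (336 to 387 CPM). They held less thymocyte RNA, at 5598 to 7021 CPM of the 20 genes against 12214 to 16423 CPM in C1q droplets. In members with 10 C1q UMIs or more Psap was at 1614, 3236, 2744 and 3314 CPM. The dendritic droplets of the same libraries had 1838, 1393, 1210 and 1357 CPM.

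Iron and haem genes were above the other droplets in all 9 cases. Ftl1 and Fth1, the chains of the iron store ferritin, stood at 5501 to 6896 CPM and 5330 to 7006 CPM, against 1012 to 1297 CPM and 1349 to 1466 CPM. Slc40a1, the iron exporter ferroportin, was at 93.1, 225, 128 and 207 CPM against 0.91 to 2.23 CPM, with both libraries of replicate 2 above both of replicate 1. Hmox1, which breaks down haem, was at 81.8 to 126 CPM, and Blvrb, which acts after it, at 145 to 215 CPM. Spic, a transcription factor known from iron-recycling macrophages, was at 60.9 to 82.3 CPM and had a UMI in 11.8% to 12.7% of C1q droplets.

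Lipid genes followed the same direction in 13 of 14 cases. Lgals3 was at 691 to 1003 CPM, Fabp5, a fatty acid carrier, at 470 to 813 CPM, and Lpl, a lipase, at 95.2 to 184 CPM. Nr1h3, a sterol-sensing nuclear receptor (LXR alpha), was at 54.4 to 81.8 CPM against 1.28 to 2.08 CPM, and its targets Abca1 and Pltp at 45.5 to 79.8 CPM and 62.9 to 116 CPM. Among secreted factors Igf1, a growth factor, was at 145 to 206 CPM and had a UMI in 23.9% to 28.9% of C1q droplets, against 0.423% to 0.982% of the others. Il18 was at 114 to 131 CPM, Ccl12 at 80.7 to 121 CPM and Cxcl16, a chemokine for CXCR6-bearing T cells, at 91.9 to 199 CPM. Tnf and Il10 stayed at or under 3.75 CPM in each library. Of 20 chemokine and cytokine genes, 13 were higher in all 4 libraries.

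Class II genes were above the droplets without C1q in all 10 cases and in every library. Cd74, the invariant chain, was at 2470, 2011, 2429 and 1735 CPM in C1q droplets and at 10202 to 14797 CPM in dendritic droplets, while droplets without C1q had 171 to 286 CPM. H2-Aa was at 636 to 912 CPM against 3854 to 6388 CPM in dendritic droplets. The dendritic droplets had been chosen on class II UMIs. Interferon-response genes such as Ifi27l2a, at 583, 420, 364 and 242 CPM, were above the droplets without C1q in 10 of 11 cases. Of 12 immediate-early and stress genes, which can rise when tissue is handled, 9 had both libraries of replicate 2 above both of replicate 1, as had 21.9% of all genes tested. Atf3, Hspa1a and Hspa1b did not. Jun was at 14.5 and 21 CPM in control 1 and cKO 1 and at 139 and 65.3 CPM in control 2 and cKO 2. Of the 12 genes, 6 had this order in droplets without C1q, as had 18.1% of 13517 genes there, with Jun at 11.9 and 15.8 CPM against 33.4 and 33.3 CPM.

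Macrophages of the thymus are known to fall into cells with Timd4 and cells with Cx3cr1, the fractalkine receptor, and both genes were found here. Timd4 was at 45.5, 84.3, 79.7 and 49.6 CPM and Cx3cr1 at 10.3, 37.5, 85 and 18.1 CPM in control 1, control 2, cKO 1 and cKO 2. Most members, 82.2% to 89%, had a UMI of neither gene. Timd4 without Cx3cr1 was seen in 19, 24, 42 and 24 droplets, Cx3cr1 without Timd4 in 4, 10, 17 and 11, and both in 1, 1, 2 and 0. In droplets without C1q, Timd4 had a UMI in 0.114% to 0.204% and Cx3cr1 in 0.141% to 0.272%. After each droplet was thinned to 1000 UMIs, which left 113, 126, 222 and 194 members, Timd4 was seen in 7.96%, 11.1%, 7.21% and 4.12% of them and Cx3cr1 in 3.54%, 3.97%, 3.15% and 2.58%. These thinned shares rest on 8 to 16 droplets per library for Timd4 and 4 to 7 for Cx3cr1.

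Droplets with either gene differed in what else they carried. Cd74 was at 195, 288, 736 and 259 CPM in Timd4 droplets and at 15193, 4662, 9469 and 11246 CPM in Cx3cr1 droplets of control 1, control 2, cKO 1 and cKO 2, with no overlap. The iron exporter Slc40a1 was at 122, 695, 227 and 843 CPM (5, 58, 28 and 88 UMIs) in Timd4 droplets and 0, 50.4, 17 and 0 CPM (0, 2, 2 and 0 UMIs) in Cx3cr1 droplets. The Cx3cr1 droplets of control 1 and cKO 2 held few UMIs in all, so that 3 counts there equal 485 and 182 CPM and a 0 in control 1 carries no order. Hpgd, which inactivates prostaglandins, gave 317 to 786 CPM in Timd4 droplets and 0, 0, 25.5 and 0 CPM in Cx3cr1 droplets. Vcam1 was at 463 to 2926 CPM against 162 to 486 CPM, where control 1 had a single Vcam1 UMI in its Cx3cr1 droplets. Spic was at 168, 146 and 278 CPM in Timd4 droplets of control 2, cKO 1 and cKO 2 and at 25.2, 25.5 and 0 CPM in their Cx3cr1 droplets. Lyz2 did not separate the droplets, at 1415 to 10098 CPM against 5653 to 14547 CPM. Thymocyte RNA was present in both, at 0.352 to 0.815 of the level of droplets without C1q in Timd4 droplets and 0.323 to 0.662 in Cx3cr1 droplets. These classes rest on single UMIs of a scarce gene in droplets of unequal depth, and their values are descriptions.

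**Figure D4:**
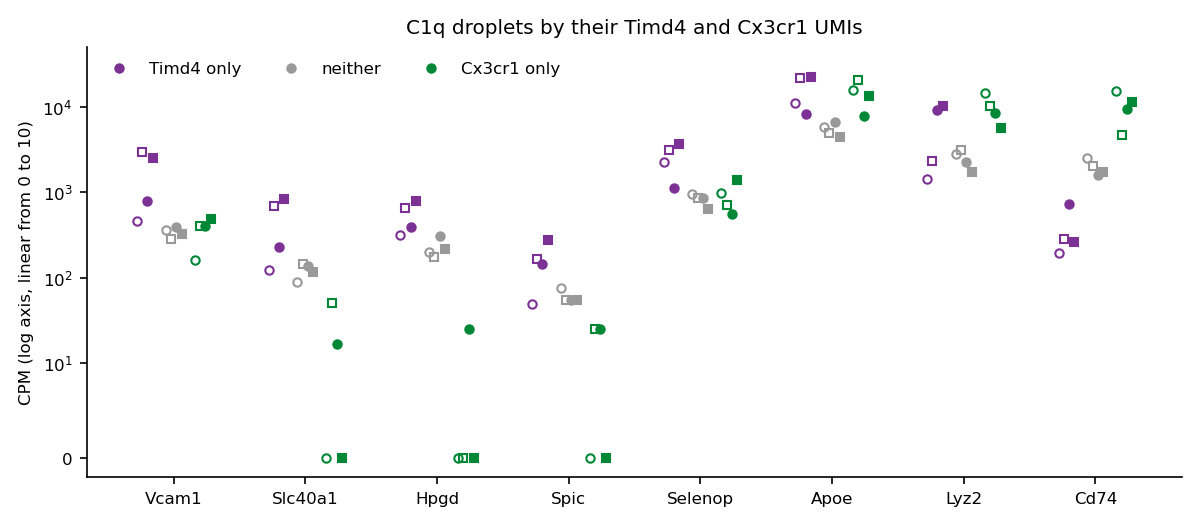
C1q droplets are split by whether they held a UMI of Timd4 only, of Cx3cr1 only or of neither, and each point is the level of a gene in 1 library in CPM (axis logarithmic above 10, linear below, open symbols for control and filled for cKO, circles for replicate 1 and squares for replicate 2). Cd74 is at 4662 to 15193 CPM in Cx3cr1 droplets and at 195 to 736 CPM in Timd4 droplets, and Slc40a1, Hpgd and Spic stand in the opposite order outside control 1, whose Cx3cr1 droplets hold too few UMIs.

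The share of C1q droplets overlapped between the genotypes, since cKO 2 lay below control 1. Within each replicate number cKO was higher, at 5.14% against 3.35% and at 2.35% against 2.11%. Whether same-numbered libraries were paired is not stated in the labels. The mean share was 1.02 percentage points higher in cKO than in control, with a two-sided exact permutation p of 0.667 (n = 2 per group), where the smallest p that this design can give is 0.333. Without cKO 1 the difference turned to -0.373 percentage points, and without cKO 2 it was 2.41. It was 0.24 percentage points at a minimum of 10 C1q UMIs, where cKO 2 was the lowest library (0.75%), and 0.538 with every droplet thinned to 1000 UMIs. With a mitochondrial limit of 5% it turned to -0.682 percentage points, with shares of 5.36% and 3.91% in control 1 and 2 and of 5.21% and 2.69% in cKO 1 and 2.

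The genotypes were then compared on the UMIs summed over the C1q droplets of each library. Tox4 itself (chr14:52279146-52296401, plus strand) was at 70.3 and 61.9 CPM in control and 49.3 and 60.5 CPM in cKO, from 34, 33, 47 and 50 UMIs. In droplets without C1q it was at 63.6, 69.9, 50.9 and 58.7 CPM. Its log2 fold change in C1q droplets was -0.23 (SE 0.28, edgeR, adjusted p = 1, n = 2 per group). The assay reads the 3′ end of the transcript, downstream of the floxed exons, so this value does not check the deletion.

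Of 7437 genes tested with edgeR's quasi-likelihood test, 3 passed an adjusted p of 0.05, which is 0.0403% of the genes, and 254 had an unadjusted p under 0.05. All 3 encode haemoglobin and were higher in cKO. Hbb-bs, a beta globin (chr7:103826534-103828096, minus strand), was at 12.4 and 9.37 CPM in control and 250 and 2019 CPM in cKO, with a log2 fold change of 6.70 (SE 0.81, adjusted p = 0.00197). Hba-a2 had a log2 fold change of 6.64 (adjusted p = 0.003) and Hba-a1 of 5.49 (adjusted p = 0.0464), by the same edgeR fit. With a library left out, Hbb-bs ran from 4.58 to 7.52, Hba-a2 from 5.19 to 7.34 and Hba-a1 from 3.18 to 7.28. Each was lowest without cKO 2. The alpha globin genes are near-identical copies, so how their reads were split is uncertain. These calls rested on 3 droplets, left out next as an alternative chosen after the data were seen. A single droplet of cKO 1 held 92.3% of the haemoglobin UMIs of that library's members, and 2 droplets of cKO 2 held 98.6% there, while no control member had 10 or more. Haemoglobin made up 28% of the UMIs of the first and 54.2% of those of the other 2, whose C1q counts did not exceed 8 UMIs. Without these 3 droplets edgeR called 0 genes, with 255 at an unadjusted p under 0.05, and Hbb-bs had a log2 fold change of 1.29 (adjusted p = 1). In droplets without C1q, Hbb-bs was at 1499 and 841 CPM in control and 1722 and 1376 CPM in cKO.

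The other genes with small p-values did not pass the threshold in this fit and are given as values. With the replicate number as a block Igkc and Ccr7 passed it (edgeR adjusted p = 0.0474 and 0.0356), but the labels do not tie these numbers to pairs. Igkc, the constant region of the kappa light chain of antibodies, was at 2.07, 5.62, 32.5 and 32.7 CPM (1, 3, 31 and 27 UMIs) in control 1, control 2, cKO 1 and cKO 2. Both cKO libraries stood above both controls, with a log2 difference of 3.04 (SE 0.56, edgeR adjusted p = 0.0801), and 11 of the 27 UMIs of cKO 2 lay in 1 droplet. In droplets without C1q the control libraries were higher on average, at 217 and 56.9 CPM against 65.7 and 40.1 CPM. Hbb-bt, another beta globin, had 0 and 1 UMIs in control and 21 and 23 in cKO (edgeR adjusted p = 0.0801). Towards lower values in cKO, Ccr7, a chemokine receptor of migrating dendritic cells and T cells, was at 57.9, 131, 26.2 and 24.2 CPM, with a log2 difference of -1.86 (SE 0.36, edgeR adjusted p = 0.0801). A single droplet of control 2 held 25 of its 70 UMIs. Relb and Il4i1, which are active in mature dendritic cells among others, had log2 differences of -1.72 (adjusted p = 0.202) and -2.13 (adjusted p = 0.217) in the same edgeR fit, and Igfbp4 and Gm12840 of -1.36 and -1.99 (adjusted p = 0.219 and 0.181). The summed dendritic list stood at 207 and 362 CPM in control and 241 and 281 CPM in cKO, and its part in these differences was not tested.

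Cd5l, a secreted macrophage protein known to be driven by LXR, was singled out after its values were seen. It was at 12.4, 13.1, 70.3 and 42.3 CPM in control 1, control 2, cKO 1 and cKO 2, from 6, 7, 67 and 35 UMIs in 4, 4, 28 and 13 droplets. Both cKO libraries were above both controls, the log2 difference was 2.18 (SE 0.42) and the edgeR adjusted p was 0.0801 (0.0415 with the replicate number as a block). In droplets without C1q it was at 0.0975, 0.102, 0.441 and 0.187 CPM, in the same order of genotypes, and the log2 effects of the 2 kinds of droplet differed by 0.64 (SE 1.14, edgeR adjusted p = 1). Among the members with at least 10 C1q UMIs, Cd5l passed the threshold, with 16.5 and 23.2 CPM in control, 134 and 121 CPM in cKO, a log2 fold change of 2.70 (SE 0.43) and an edgeR adjusted p of 0.0286. These stricter values came from 4, 5, 59 and 30 UMIs in 2, 2, 22 and 8 droplets of control 1, control 2, cKO 1 and cKO 2. The highest droplet of cKO 1 held 17 of the 59 UMIs.

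That stricter set of 100, 85, 183 and 100 droplets gave 4027 tested genes and 3 calls, which is 0.0745% of the genes, with 195 at an unadjusted p under 0.05. Beside Cd5l the calls were Tcrg-C2 and Tcrg-C1, constant regions of the gamma chain of the T cell receptor, both lower in cKO. Tcrg-C2 was at 115 and 139 CPM in control and 15.9 and 8.03 CPM in cKO (log2 fold change -3.23, edgeR adjusted p = 0.0145). Its 28 and 30 control UMIs came from 3 and 4 droplets. Tcrg-C1 had 16 and 24 UMIs in control, from 2 and 4 droplets, and 1 and 1 in cKO (log2 fold change -4.69, edgeR adjusted p = 0.0145). With all C1q droplets the log2 differences were -1.03 for Tcrg-C2 and -0.73 for Tcrg-C1 (edgeR adjusted p = 0.827 and 1). Outside the C1q droplets they ran the other way, at 0.49 for each gene (edgeR adjusted p = 0.238 and 0.139). Both are T cell genes, and thymocyte RNA in these droplets stood at 0.468 and 0.516 of the level of droplets without C1q in control and at 0.46 and 0.449 in cKO. Its part in the calls was not tested.

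By list, in the fit with genotype alone, only the erythroid list held called genes, and 0 genes of the other 18 lists passed the threshold. Over all 7437 genes, 12.8% had both cKO libraries above both controls and 18.4% had both below, and the median log2 fold change was 0.01. Of 18 macrophage genes tested, 3 stood above and 0 below, with a median of 0.11. Lyz2 had a log2 fold change of 0.11 (SE 0.20), Apoe of -0.04 (SE 0.16) and Vcam1 of -0.01 (SE 0.25), each smaller than its standard error (edgeR, adjusted p = 1). Their signs depended on the processing: Lyz2 stood at -0.57 when each droplet was thinned to 500 UMIs, and Vcam1 became 0.05. Timd4 had a log2 difference of 0.04 (SE 0.33) and Cx3cr1 of 1.16 (SE 0.59, edgeR adjusted p = 1). These turned as well, to -0.517 for Timd4 in the thinned droplets and to -0.416 for Cx3cr1 without cKO 1. Without control 2 Cx3cr1 stood at 2.38. Of 81 Cx3cr1 UMIs in cKO 1, 36 came from 1 droplet.

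Lysosomal genes stood above in 1 and below in 0 of 23 tested cases (median 0.07), uptake genes in 2 and 0 of 9 (median 0.19), iron and haem genes in 1 and 2 of 8 (median 0.0018) and class II genes in 2 and 0 of 7 (median 0.04). Lipid genes stood above in 7 and below in 0 of 14 (median 0.20), with Lpl at 95.2 and 142 CPM in control and 164 and 184 CPM in cKO (log2 difference 0.58, SE 0.25, edgeR adjusted p = 1). The 10 tested chemokine and cytokine genes gave 2 above and 0 below (median 0.34), and the 10 interferon-response genes 1 above and 2 below (median 0.03).

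The thymocyte genes stood below in 8 and above in 0 of 20 cases, with a median log2 difference of -0.13, and droplets without C1q showed lower values in cKO for the genes named here as well. Cd8b1 differed by -0.36 (SE 0.18) in C1q droplets and by -0.34 in droplets without C1q, but the first value turned to 0.0146 at a mitochondrial limit of 5%. Cd8a differed by -0.51 (SE 0.18) and -0.60. None of these genes passed the threshold in C1q droplets (edgeR, adjusted p = 1). Both kinds of droplet come from the same libraries.

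**Figure D5:**
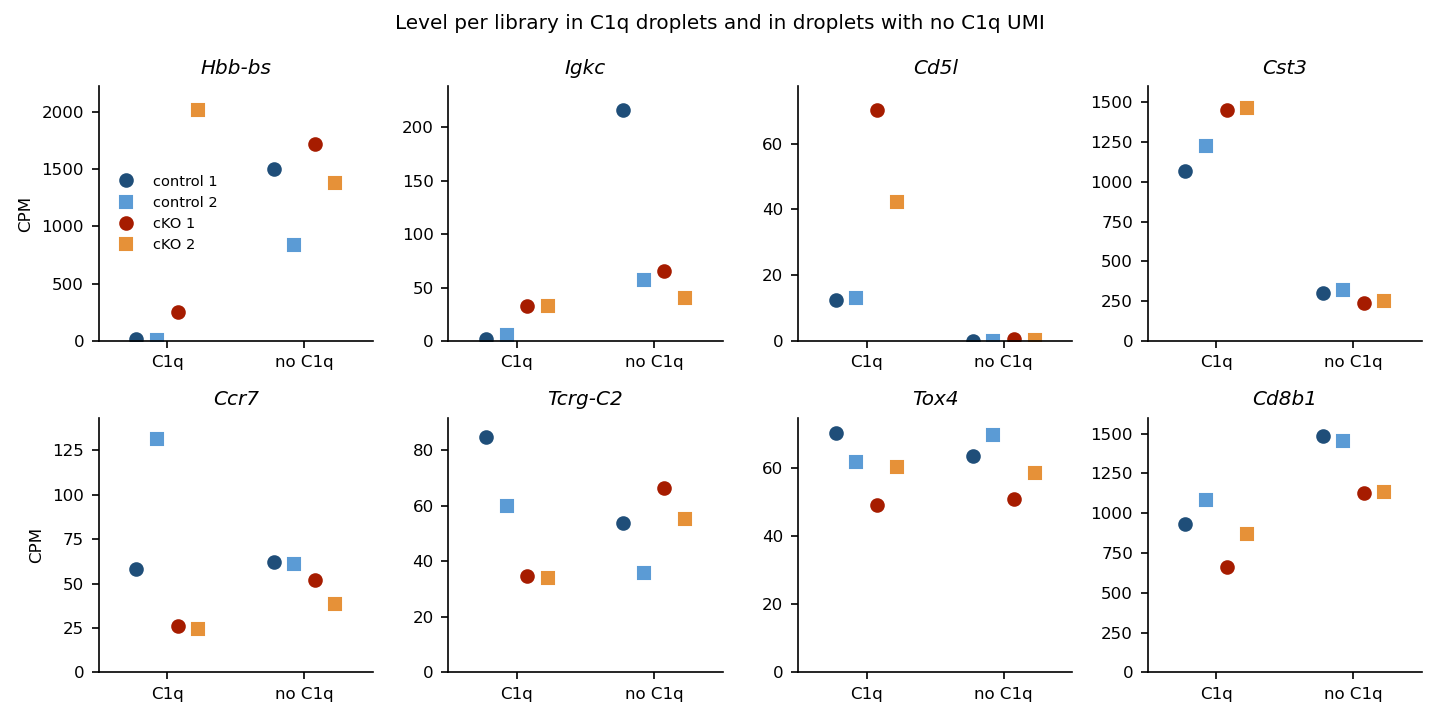
Each panel shows the level of a gene in CPM in C1q droplets (left) and in droplets without a C1q UMI (right), with 1 point per library (blue for control, red and orange for cKO, circles for replicate 1 and squares for replicate 2). Hbb-bs, Igkc and Cd5l are higher in both cKO libraries in C1q droplets, and Cd8b1 is lower in both cKO libraries in both kinds of droplet (in C1q droplets its difference turned to 0.0146 at a mitochondrial limit of 5%). With all C1q droplets, and genotype as the only term, only the haemoglobin gene shown passed the threshold between genotypes.

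Whether the genotype effect differed between C1q droplets and droplets without C1q was tested directly, with the library as a block. Of 13517 genes, 9 passed an adjusted p of 0.05 in edgeR's test of this difference, which is 0.0666%, and 565 had an unadjusted p under 0.05. They were the haemoglobin genes Hbb-bs, Hbb-bt, Hba-a1 and Hba-a2, the antibody gene Igkc, and Cst3, Dqx1, Tcrg-C2 and Gm12840. Cst3, a secreted protease inhibitor that is abundant in macrophages and dendritic cells, was at 1065 and 1226 CPM in control and 1453 and 1465 CPM in cKO in C1q droplets. In droplets without C1q it had the opposite order, at 300 and 319 CPM in control and 237 and 250 CPM in cKO. The difference of the log2 effects was 0.74 (SE 0.12, edgeR adjusted p = 0.00126). In cKO 2 a single droplet held 467 of the 1211 Cst3 UMIs, and the difference was 0.07 (edgeR adjusted p = 1) when every C1q droplet was thinned to 500 UMIs. With at least 10 C1q UMIs it was 0.63 (edgeR adjusted p = 0.76). Igkc had a difference of 4.40 (SE 0.54, edgeR adjusted p = 2.29e-06), and it remained called when the droplets were thinned (5.33). Its log2 effect was 3.04 in C1q droplets and -1.32 in droplets without C1q. Droplets with the B cell gene Cd79a were left out only among the C1q droplets, and the others held 7.94 to 14.5 CPM of it. The part of B cell RNA in the Igkc difference was not tested. Dqx1 had a difference of -3.42 (edgeR adjusted p = 0.000867) from 13, 15, 6 and 3 UMIs in C1q droplets, 12 of the 13 in 1 droplet of control 1. Without control 1 the Dqx1 difference was -3.80, and in the thinned droplets it was -2.35 and uncalled. Without the 3 haemoglobin-rich droplets 4 of the 9 genes were called, which were Igkc, Dqx1, Cst3 and Tcrg-C2. Gm12840 kept its value there, at -1.43 (edgeR adjusted p = 0.0753).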

How the data were processed

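Thymocytes were profiled with 10x Genomics 3′ chemistry (version 3). The authors deposited raw UMI counts per gene and droplet, made with cellranger 6.1.1 (default parameters, GRCm38/mm10) without normalization. The thymocyte suspensions had passed a 70-µm mesh, and no sort for macrophages is given in the sources used here. Droplets were filtered as stated in the report, with no doublet removal. The members and gene lists were chosen with earlier results of these data known. Counts were summed per library (n = 2 per genotype) and tested with edgeR 4.0.16 (quasi-likelihood, TMM, filterByExpr, R 4.3.3), genotype as the only term, p-values adjusted by Benjamini-Hochberg over all genes tested. A second fit tested whether the genotype effect differed from that in droplets with no C1q UMI, with library as a block. Standard errors are the fold change over the square root of F. DESeq2 1.42.0 and Scrublet (scanpy 1.11.5) served alternatives. The fits were tested on simulated data. Genes named are fixed markers, the 4 highest genes of each list (or those called), the 5 smallest p-values in each direction, genes at 0 and the 5 smallest p-values of the second fit, with further list genes chosen after their values were seen. Positions are from GENCODE M21 (GRCm38), which held 32158 of 32285 gene identifiers, and 221 of 222 listed genes were found. Because 2 libraries per group were available, a p-value measures the spread between these libraries. Some listed genes are not reported here.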

Additional observations from a re-analysis of the deposited data

Results flagged for a closer look

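A difference between the genotype effect in C1q droplets and that in droplets without a C1q UMI (log2 scale, positive where cKO was relatively higher in C1q droplets) passed the threshold of edgeR's test of the difference for 9 genes. These were Hbb-bs (5.86), Hbb-bt (4.47), Hba-a1 (4.69), Hba-a2 (6.01), Igkc (4.4), Cst3 (0.74), Dqx1 (-3.42), Gm12840 (-1.43) and Tcrg-C2 (-1.49). The haemoglobin values rest on 3 droplets. For Igkc, droplets with Cd79a had been left out of the C1q droplets but not of the others. When each C1q droplet was thinned to 500 UMIs, 4 of the 9 genes were called, namely Hbb-bs, Hba-a1, Hba-a2 and Igkc. Of the uncalled genes, Tcrg-C2 stood at -1.70, Dqx1 at -2.35 and Hbb-bt at 12.1, while Cst3 fell to 0.07 and Gm12840 to -0.0175. Leaving out a library ended the call of Hbb-bt without control 1 (3.38, edgeR adjusted p = 0.187), of Gm12840 without control 2 (-0.42, edgeR adjusted p = 0.983) and of Tcrg-C2 without cKO 1 (-1.39, edgeR adjusted p = 0.133), and Igkc stood at 2.68 without control 1 (edgeR adjusted p = 0.0366).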

How the results depend on the processing

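With 2 libraries per group, the 3 haemoglobin calls between genotypes rested on 3 droplets, and no share could reach an exact p under 0.333. Other droplets that held many UMIs of a called gene were not left out on that ground. The difference in share was -0.682 percentage points at a mitochondrial limit of 5% and between -0.373 and 2.41 with a library left out, turning negative without cKO 1. The difference in thymocyte ratio was 0.102 at a mitochondrial limit of 5% (0.639 and 0.666 in control, 0.708 and 0.8 in cKO, exact permutation p = 0.333, n = 2 per group). At 10 C1q UMIs it was -0.0374 (0.468 and 0.516 in control, 0.46 and 0.449 in cKO, exact permutation p = 0.333). It was -0.0128 without the highest Scrublet scores and between -0.0604 and 0.0773 with a library left out. Genes called by genotype (3) numbered 26 without a filter on low counts, 7 without extreme UMI totals, and 0 at a mitochondrial limit of 5% (218 at an unadjusted p under 0.05 in edgeR), among members with no UMI of 4 thymocyte genes (780 genes tested, 19 at an unadjusted p under 0.05) and, as an alternative chosen after seeing the data, without haemoglobin-rich droplets. At the mitochondrial limit of 5% the log2 values of Hbb-bs, Hba-a2 and Hba-a1 were 7.61, 7.3 and 5.77, though uncalled. DESeq2's Wald test called 2. They numbered 3 to 27 with a library left out, 27 without cKO 2, 21 without control 1 and 5 without control 2. The replicate numbers mark no litter or batch in the labels, and deviations of same-numbered libraries correlated at 0.0862 over 7437 genes. A replicate block gave 8 calls, with Cd5l, Ccr7, Alox5ap, Pf4 and Igkc beside the 3 main genes (edgeR adjusted p = 0.0415 for Cd5l, 0.0356 for Ccr7 and 0.0474 for Igkc).

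Genes called for a difference from droplets without C1q (9) numbered 30 at 10 C1q UMIs (5 higher and 25 lower, with 3 of the 9 among them, and Hba-a1 and Hba-a2 turned to -1.56 and -1.23, uncalled, as was Hba-a1 at -1.17 without haemoglobin-rich droplets), 13 to 28 with a library left out (24 without control 1, 23 without control 2) and, in alternatives chosen after seeing the data, 15 without the droplet with the most C1q UMIs, 4 with equal UMIs per droplet and 4 without haemoglobin-rich droplets.

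Of 318 repeated fits of 23 named genes, 25 changed sign, in 7 genes that were not called between genotypes, and the cause was not tested. At a mitochondrial limit of 5% the log2 value was -0.317 for Lyz2, -0.328 for Timd4 and 0.0146 for Cd8b1, and without extreme UMI totals it was -0.265 for Lyz2, -0.151 for Timd4 and 0.0741 for Vcam1. With equal UMIs it was -0.571 for Lyz2, -0.517 for Timd4, 0.0523 for Vcam1 and -0.335 for Cst3, and without the droplet with the most C1q UMIs -0.00605 for Lyz2. At 10 C1q UMIs it was 0.106 for Apoe and 0.169 for Vcam1, without high Scrublet scores 0.00327 for Apoe, without a filter 0.0184 for Vcam1 and with the replicate block 0.0512 for Vcam1. With a library left out, Lyz2 ran from -0.285 to 0.421, Apoe from -0.299 to 0.279, Vcam1 from -0.428 to 0.577, Timd4 from -0.391 to 0.563 and Cx3cr1 from -0.416 (without cKO 1) to 2.38.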
